A study of Homo sapiens with 4 samples.

Results

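The CXCL chemokine cluster and the genes TNFAIP3 and NFKBIA were examined for peaks of ATF3, a bZIP transcription factor induced by cellular stress, in SW480 cells, an established colorectal cancer line. ATF3 was mapped by CUT&Tag, in which an antibody (here against ATF3) brings a transposase to chromatin and the DNA around the bound protein is cut and tagged. The cells had spent 24 h in cystine-restricted medium (2 libraries) or in full medium (2 libraries), and cystine, the oxidised dimer of cysteine, is the form cells take up from medium. Peaks of the 4 deposited lists that shared at least 1 bp were merged into regions on chromosomes 1 to 22 and X. The members are the regions that overlap 3 windows of the hg19 genome: the CXCL cluster on chromosome 4 from 74580000 to 74990000, TNFAIP3 on chromosome 6 from 138188325 to 138204451 with 20 kb on each side, and NFKBIA on chromosome 14 from 35870716 to 35873960 with 20 kb on each side. There were 12 such regions of 44826 in all, 6 in the CXCL window, 4 at TNFAIP3 and 2 at NFKBIA. The labels list each library as a sample of its own and do not name separate cultures. The p-values below therefore set differences against the spread between libraries, which may be technical.

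The CXCL cluster holds genes of small secreted proteins, the chemokines. Those encoded by CXCL8, CXCL6, CXCL1, CXCL5, CXCL3 and CXCL2 attract neutrophils through the receptors CXCR1 and CXCR2. In the RefSeq table of GRCh38.p14 the members lie along chromosome 4 in the order CXCL8, CXCL6, CXCL1, CXCL5, CXCL3 and CXCL2, with PF4V1 between CXCL6 and CXCL1, and PF4 and PPBP between CXCL1 and CXCL5. The member chemokine genes are textbook targets of NF-κB, a family of transcription factors activated by inflammatory signals. NFKBIA encodes IκBα, which holds NF-κB in the cytoplasm, and TNFAIP3 encodes A20, a ubiquitin-editing enzyme that damps the signal upstream of NF-κB. Both are themselves switched on by NF-κB and so form its negative feedback. ATF3 belongs to the same bZIP superfamily as JUN and FOS and is known to bind AP-1 and CRE sites, alone or with such partners.

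Promoter sequence of the 8 genes was taken from the RefSeq table of GRCh38.p14, in which all 8 were found and which gives 250 bases before and 50 bases after each start. The 120 bases from position -150 to position -31, counted from the first transcribed base, are shown because they hold each NF-κB and AP-1 match found in the 8 promoters. The stretches lie at chr4:73740419-73740538 on the plus strand for CXCL8, chr4:73836528-73836647 on the plus strand for CXCL6 and chr4:73869243-73869362 on the plus strand for CXCL1. Those of CXCL5, at chr4:73998708-73998827, of CXCL3, at chr4:74038720-74038839, and of CXCL2, at chr4:74099226-74099345, are read from the minus strand. That of TNFAIP3 lies at chr6:137867109-137867228 on the plus strand and that of NFKBIA at chr14:35404780-35404899 on the minus strand. These coordinates are GRCh38.p14 and were not converted to hg19, so they are not set against the peaks here. Capitals mark the motif matches.
CXCL8: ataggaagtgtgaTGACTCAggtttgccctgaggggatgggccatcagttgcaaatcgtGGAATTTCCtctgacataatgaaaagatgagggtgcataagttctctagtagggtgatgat
CXCL6: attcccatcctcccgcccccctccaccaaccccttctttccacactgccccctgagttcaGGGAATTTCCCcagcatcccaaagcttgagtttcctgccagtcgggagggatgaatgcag
CXCL1: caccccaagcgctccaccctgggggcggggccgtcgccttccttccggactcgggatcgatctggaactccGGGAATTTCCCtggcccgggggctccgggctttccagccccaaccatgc
CXCL5: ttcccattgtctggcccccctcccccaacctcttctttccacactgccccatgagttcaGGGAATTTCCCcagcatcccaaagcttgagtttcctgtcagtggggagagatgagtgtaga
CXCL3: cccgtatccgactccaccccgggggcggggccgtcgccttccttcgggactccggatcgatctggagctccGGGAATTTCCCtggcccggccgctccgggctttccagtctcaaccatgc
CXCL2: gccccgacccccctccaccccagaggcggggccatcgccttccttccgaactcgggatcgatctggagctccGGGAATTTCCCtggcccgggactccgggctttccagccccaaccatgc
TNFAIP3: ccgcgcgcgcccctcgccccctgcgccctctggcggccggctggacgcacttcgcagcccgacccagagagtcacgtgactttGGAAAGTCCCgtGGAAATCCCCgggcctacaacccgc
NFKBIA: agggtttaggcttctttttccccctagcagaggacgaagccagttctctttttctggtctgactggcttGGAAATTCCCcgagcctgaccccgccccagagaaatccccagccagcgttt

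A 9-base NF-κB motif, GGAANTTCC, read on both strands over the 300 bases, was found in 7 of the 8 promoters, against 0.965% of the 35116 promoters in the table. It began at position -91 in CXCL8, -90 in CXCL5, -89 in CXCL6, -81 in NFKBIA, -78 in CXCL1 and CXCL3 and -77 in CXCL2. A looser NF-κB decamer consensus, which overlaps the 9-base motif in 6 promoters, was also found in 7 of the 8, against 11.3% of all promoters, and TNFAIP3 held a pair of matches beginning at -67 and -55. The AP-1 motif TGANTCA was found in 1 of the 8, at -137 in CXCL8, against 7.71% of all promoters. No promoter of the 8 held the CRE motif TGACGTCA, found in 1.85% of all promoters, or the C/EBP-ATF composite TGATGNAAN, found in 3.61%. A match is a description of letters and not a bound site. Since the 8 genes are known targets of NF-κB, matches to its motifs were likely from the outset. Several of the promoters, as given next, are near copies, so their matches are not independent. The promoters of CXCL6 and CXCL5 were 83.1% identical in a global alignment, with a longest shared run of 45 bases, and those of CXCL1 and CXCL3 82.5% identical, with a longest shared run of 25 bases. CXCL2 was 71.9% identical to CXCL1 and 73.8% to CXCL3, with shared runs of 42 and 37 bases. Reads from such copies can be assigned to the wrong one, and how multiply mapping reads were treated is not given in the sources used here.

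The deposited values are a fold enrichment, a −log10 p and a −log10 q per peak, which are the authors' own and describe each peak within its list. A fold and a p together fix the summit pileup, the number of tags stacked at a peak's summit, and the local background, the pileup expected there. The genome background, the expected pileup over the whole genome, rises in proportion to depth. The lists do not state it, so it was taken as the lowest local background recovered in each list. The genome background was 1.30 and 1.08 tags in cystine-restricted libraries 1 and 2 and 1.11 and 1.32 tags in full-medium libraries 1 and 2. Pileups were divided by it to compare libraries, and this ratio is called the scaled pileup. The lists held 33838 and 29607 peaks under cystine restriction and 17447 and 19132 in full medium, and the lowest listed summit pileup was 7 and 6 tags under cystine restriction and 7 tags in each full-medium library. A region without a listed peak in a library did not pass the caller there, which is no measurement of zero binding.

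More peaks were listed in the 3 windows under cystine restriction, where the whole lists were also longer. The cystine-restricted libraries had 12 and 10 peaks there and the full-medium libraries 6 and 5, which gives means of 11 ± 1.41 and 5.5 ± 0.707 peaks (SD, n = 2 each) and a ratio of 2.0, against 1.73 for all peaks. The CXCL window held 7 and 7 of these peaks under cystine restriction and 4 and 3 in full medium. The 4 libraries do not overlap in this count, but a two-sided exact permutation test gave p = 0.33, and 6 assignments allow none smaller. Per 10000 listed peaks the number was 3.55 and 3.38 under cystine restriction and 3.44 and 2.61 in full medium. When each list was cut to its top 17447 peaks, the windows held 5 and 6 peaks under cystine restriction and 6 and 5 in full medium, a ratio of 1. With a −log10 q of at least 5 they held 7 and 6 peaks under cystine restriction and 3 and 1 in full medium, a ratio of 3.25. The ratio for all peaks at that cut is not given here.

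Of the 12 regions, 4 had a peak in all 4 libraries, where 23% of all regions did. Another 3 were gained, that is, listed in each of the cystine-restricted libraries but not in full medium, against 12.7% of all regions. None was lost, the reverse pattern, which 0.386% of all regions had. The other 5 had mixed patterns, as did 63.9% of all regions. Of these, 3 were listed in 1 library, as were 46.4% of all regions, and 2 in 1 library of each medium. The highest peaks per library of the 3 gained regions ranked between the 5.69 and the 67.3 percentile of their lists, and none of these regions was gained when the lists were cut to equal length.

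**Figure D1:**
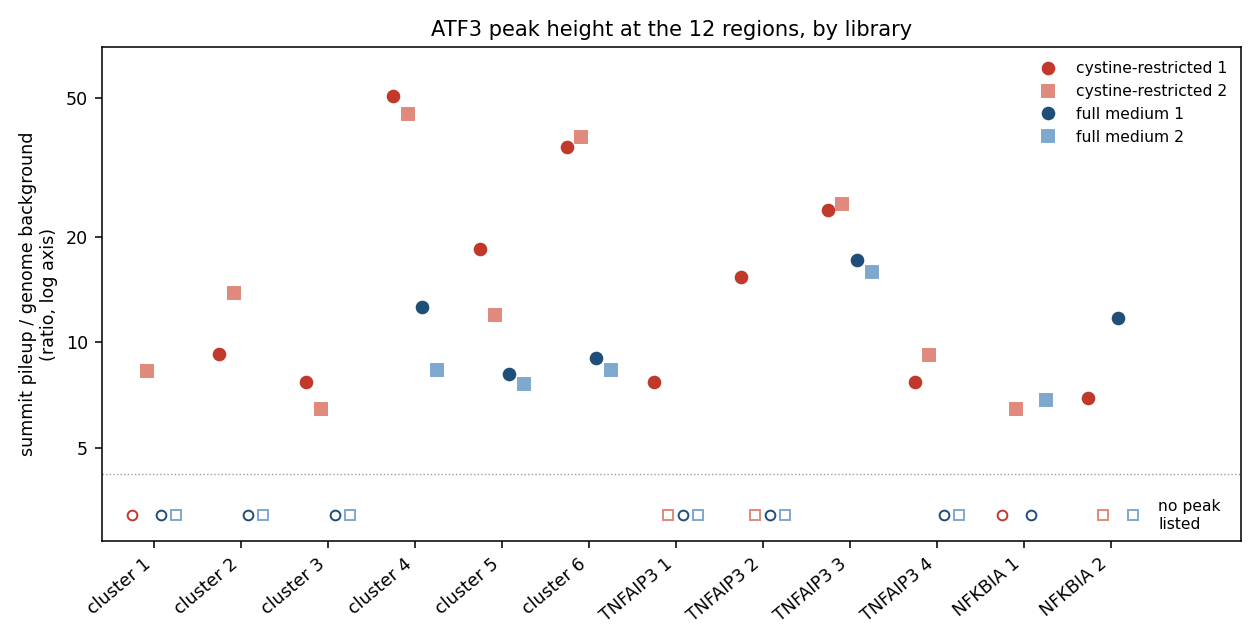
Summit pileup divided by the genome background (ratio, log axis) at the 12 regions, numbered along the chromosome within each window. Filled symbols are listed peaks and open symbols on the lowest line mark libraries with no peak listed. CXCL regions 4 and 6 stand at 36.2 to 50.8 in the cystine-restricted libraries and at 8.35 to 12.7 in full medium.

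The chemokine window was unevenly filled. From the nearest region on its left, which ends at 74207950, to the first CXCL region there was a stretch of 526 kb with no listed peak in any library. Of this stretch 372 kb lay left of the window and 154 kb inside it. Over the whole stretch, 1.67% of the 44803 gaps between neighbouring regions were at least as long, the median gap being 18.5 kb. The first region was followed by a further gap of 137 kb. The other 5 regions lay within 105 kb, from 74871166 to 74976131, with gaps of 9.13 to 41.5 kb between them. No gene annotation of hg19 was used here, so the chemokine gene nearest to each region is not given and the regions are numbered 1 to 6 along the chromosome.

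**Figure D2:**
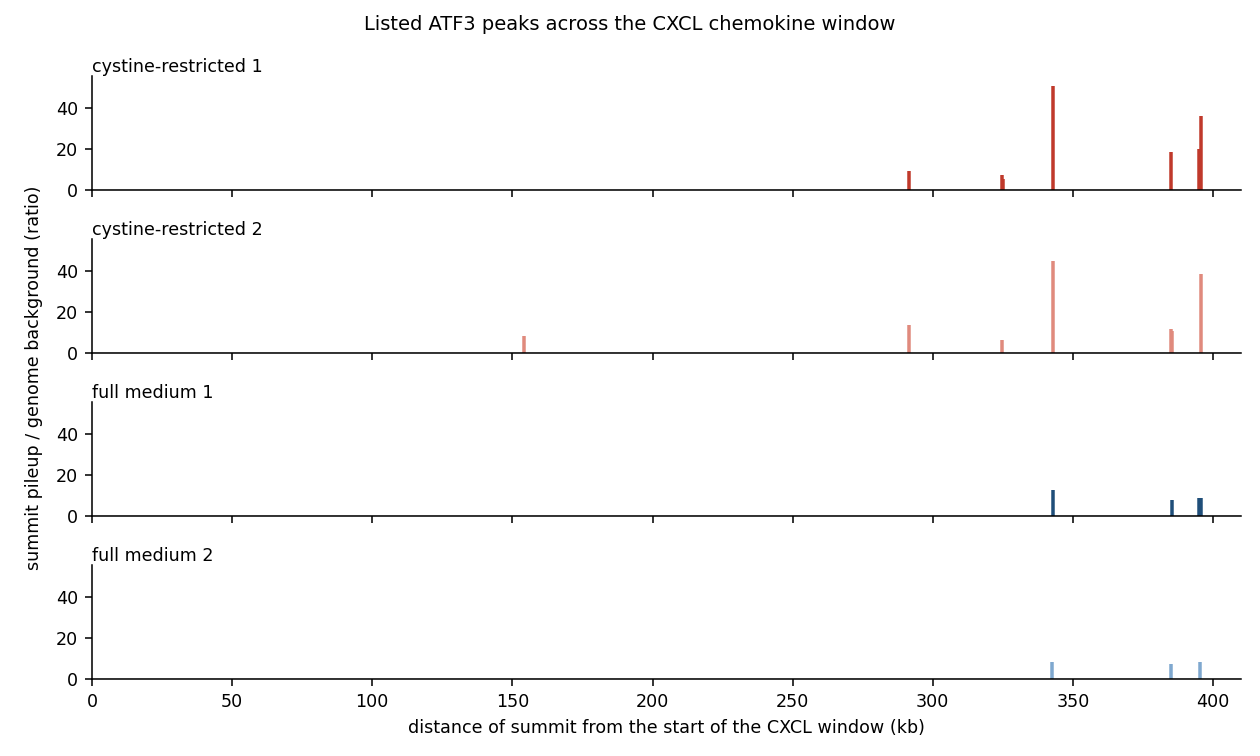
Listed ATF3 peaks across the 410 kb CXCL window, 1 panel per library. The x axis is the distance of the summit from the window's start (kb) and the height is the summit pileup over the genome background (ratio). The highest peaks, at about 343 and 396 kb, are those of regions 4 and 6 in the cystine-restricted libraries.

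CXCL region 4, on chromosome 4 from 74922171 to 74923245 (hg19, 1075 bp), was the highest in the window. Its summit pileups were 66 and 49 tags in cystine-restricted libraries 1 and 2, against 14 and 11 tags in full-medium libraries 1 and 2. Scaled pileups were 50.8 and 45.2 under cystine restriction and 12.7 and 8.35 in full medium. The media do not overlap, as at 72.8% of the 10331 regions that every library listed. Both cystine-restricted values stand far above both full-medium values. The means were 48.0 ± 3.99 under cystine restriction and 10.5 ± 3.05 in full medium (SD, n = 2 each). Within their own lists the peaks ranked at the 96.3 and 96.1 percentile of −log10 p under cystine restriction and at the 63.9 and 35.6 percentile in full medium. The deposited fold enrichments were 15.1 and 16.4 under cystine restriction and 7.12 and 5.18 in full medium, with −log10 q of 55.8 and 45.5 and of 8.51 and 4.69.

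Scaled pileups were compared by limma on the log2 scale over all 10331 regions with a peak in all 4 libraries, and p-values were adjusted over these by the Benjamini-Hochberg method. ATF3 signal rose at CXCL region 4 by 2.22 ± 0.27 (log2, SE), or 4.66-fold, with an adjusted p of 1.2e-08 in limma. Of all regions tested, 43.2% passed as higher under cystine restriction and 0.407% as lower, since the median change was 0.53, or 1.45-fold. Each library was therefore also centred at its median over these regions, which asks whether a region moved beyond that common shift. Region 4 still rose by 1.65 ± 0.25 with an adjusted p of 2.4e-06 in limma, where 4.96% of regions passed as higher and 4.28% as lower. The split of calls over all regions was 4458 higher and 42 lower with the genome background and 512 higher and 442 lower after centring. Only 13 of the 10331 regions, region 4 included, had a change as large as that of region 4.

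CXCL region 6, from 74974639 to 74976131 (1493 bp), changed in nearly the same measure. Its highest summits had 47 and 42 tags in cystine-restricted libraries 1 and 2, against 10 and 11 tags in full-medium libraries 1 and 2. Scaled pileups were 36.2 and 38.7 under cystine restriction and 9.04 and 8.35 in full medium, with little spread inside each medium. The media do not overlap here either, as at 72.8% of all regions tested. The means were 37.5 ± 1.79 and 8.69 ± 0.492 (SD, n = 2 each). The signal rose here by 2.11 ± 0.28 (log2, SE), or 4.31-fold, with an adjusted p of 8.8e-08 in limma, and by 1.54 ± 0.26 after centring, with an adjusted p of 3.2e-05 in limma. A change as large was seen at 18 of the 10331 regions, region 6 included. The peaks ranked at the 91.7 and 92.3 percentile of their lists under cystine restriction and at the 29.5 and 35.6 percentile in full medium.

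CXCL region 5, from 74964764 to 74965506 (743 bp), changed less and less evenly. Its highest summits had 24 and 13 tags under cystine restriction, against 9 and 10 tags in full medium. Scaled pileups were 18.5 and 11.99 under cystine restriction and 8.14 and 7.59 in full medium. The media do not overlap, as at 72.8% of all regions tested. The cystine-restricted libraries differ, however, from each other by more than the lower of them differs from full medium. The signal rose by 0.92 ± 0.30 (log2, SE), or 1.90-fold, with an adjusted p of 0.013 in limma. After centring the difference was 0.35 ± 0.29 (95% interval -0.23 to 0.94) with an adjusted p of 0.52 in limma, so a change beyond the common shift was not shown. Without full-medium library 2 the uncentred change was 0.87, and as 1 full-medium library is then left, no p is given. Without cystine-restricted library 1 the peaks no longer joined into a region shared by the other libraries.

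**Figure D3:**
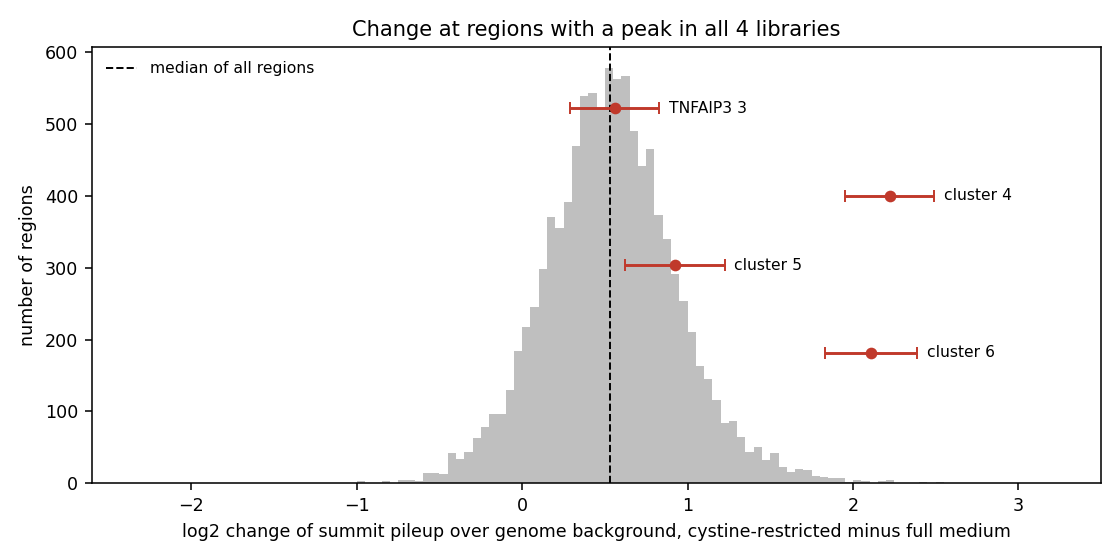
Distribution of the log2 change of the scaled pileup, cystine-restricted minus full medium, over the 10331 regions listed in each of the 4 libraries (grey, number of regions per bin of 0.05), with their median as a dashed line. The 4 points are the regions of the windows with their SE, at arbitrary heights. CXCL regions 4 and 6 lie at 2.22 and 2.11 in the far right tail, and the TNFAIP3 region at 0.56 lies by the median of 0.53.

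The listed widths and summits of the peaks in regions 4 to 6 also differed between the libraries. In region 4 the peaks were 1075 and 704 bp wide under cystine restriction and 153 and 150 bp wide in full medium. The narrowest peaks listed in the windows were 150 bp wide, in either medium, so these full-medium widths lie at or near a lower limit. Width above the caller's threshold also depends on height, so it is not a separate measure of change. For comparison, the highest peak per region at all regions in 4 libraries had median widths of 759 and 682 bp under cystine restriction and 503 and 529 bp in full medium. The cystine-restricted summits of region 4, at 74922741 and 74922755, were 14 bp apart, and the summit of full-medium library 1, at 74922744, lay between them. The peak of full-medium library 2 had its summit at 74922441 and ended before these positions, so its 11 tags are those of a point about 300 bp away and its pileup at the shared summit is not listed.

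In region 6 the highest cystine-restricted summits, at 74975799 and 74975808, were likewise close, 9 bp apart, but no full-medium summit lay between them. Full-medium library 1 had a pair of peaks of 10 tags, one with its summit at 74975765 and one at 74975002, and full-medium library 2 had a single peak of 11 tags with its summit at 74975431. Cystine-restricted library 1 listed a further, lower peak in this region with its summit at 74975080 and 26 tags, while cystine-restricted library 2 listed a single peak of 1295 bp there. In region 5 the summits of cystine-restricted libraries 1 and 2, at 74965103 and 74965100, were 3 bp apart, and that of full-medium library 2 lay at 74965067. Cystine-restricted library 2 had a further peak with its summit at 74965405 and 12 tags, beside the only peak of full-medium library 1, at 74965388. The spread of the 4 highest summits was 314 bp in region 4, 321 bp in region 5 and 377 bp in region 6, against a median of 124 bp over all regions in 4 libraries. For region 6 this takes the summit of full-medium library 1 at 74975765, and its equally high peak at 74975002 would give a wider spread. The changes above thus compare the highest listed summit of each library and not always the same base.

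**Figure D4:**
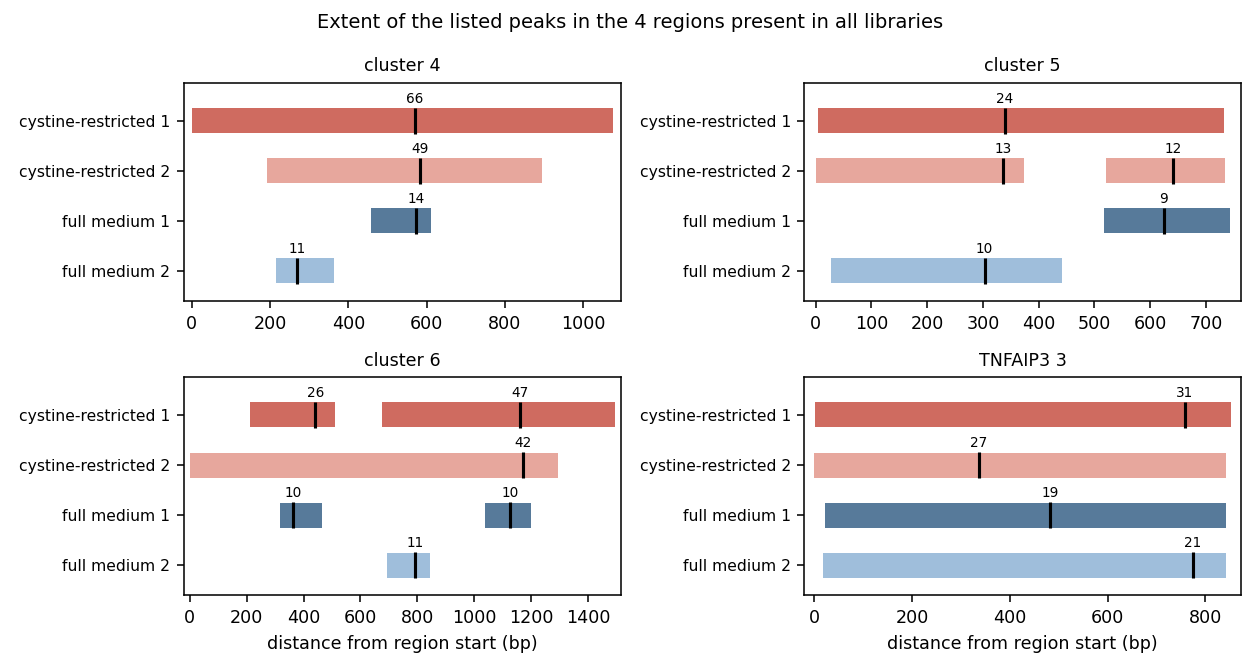
Extent of every listed peak in the 4 regions present in all libraries, as distance from the region's start (bp), 1 row per library. Bars are peaks, black marks their summits and numbers the summit pileups (tags). The cystine-restricted peaks of CXCL region 4 span 1075 and 704 bp against 153 and 150 bp in full medium, whereas the TNFAIP3 peaks span 851, 843, 821 and 826 bp. The narrowest peaks listed in the windows are 150 bp wide.

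The local background around these regions, which the peak caller takes from tags in the neighbourhood and which includes the peak itself, was raised under cystine restriction only. At region 4 it was 2.66 and 1.90 times the genome background in cystine-restricted libraries 1 and 2. At region 6 it was 2.69 and 2.85 times. In both full-medium libraries the peaks of regions 4, 5 and 6 had the genome background itself as their expected pileup. At region 5 it was 1.64 and 1.11 times the genome background at the highest peaks of cystine-restricted libraries 1 and 2.

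The remaining CXCL regions were low. Region 2, from 74871166 to 74871664, was gained, with 12 and 15 tags in cystine-restricted libraries 1 and 2 (scaled pileups 9.24 and 13.8) and no peak listed in full medium. Its summits were 25 bp apart and ranked at the 40.8 and 67.3 percentile of their lists. Region 3, from 74904480 to 74905106, was also gained, with 10 and 7 tags (scaled pileups 7.70 and 6.46) at summits 88 bp apart, and library 1 listed a second peak of 7 tags in it. The 7 tags of library 2 are 1 above the lowest pileup in its list. The median pileup of gained regions in all was 16 tags in cystine-restricted library 1 and 13 tags in library 2, so region 2 exceeded it in library 2 only and region 3 in neither. Region 1, from 74734081 to 74734237, had a single peak of 9 tags, in cystine-restricted library 2.

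TNFAIP3, the gene of A20, had a peak of nearly constant outline just before its start. TNFAIP3 region 3, on chromosome 6 from 138187369 to 138188221 (hg19, 853 bp), ended 104 bp upstream of the gene's first base as given by the window. Its summit pileups were 31 and 27 tags in cystine-restricted libraries 1 and 2, against 19 and 21 tags in full-medium libraries 1 and 2. Scaled pileups were 23.9 and 24.9 under cystine restriction and 17.2 and 15.9 in full medium, without overlap, as at 72.8% of all regions tested. The means were 24.4 ± 0.725 and 16.6 ± 0.881 (SD, n = 2 each). The difference was 0.56 ± 0.27 (log2, SE; 95% interval 0.02 to 1.10), or 1.47-fold, and its adjusted p of 0.083 in limma missed the threshold of 0.05. After centring it was -0.01 ± 0.25 (95% interval -0.52 to 0.50) with an adjusted p of 0.99 in limma. The TNFAIP3 difference was close to the median of all regions, with 4870 of the 10331 regions at least as high.

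The 4 TNFAIP3 peaks of region 3 began within 138187369 to 138187391 and ended at 138188211 or 138188221. Their widths were 851 and 843 bp under cystine restriction and 821 and 826 bp in full medium. Their summits did not follow the medium. They lay at 138188127 and 138187706 in cystine-restricted libraries 1 and 2 and at 138187852 and 138188143 in full-medium libraries 1 and 2. Those of cystine-restricted library 1 and full-medium library 2 were close together on the right. The others lay further left and less close to each other. The local background here was raised in all libraries, at 3.33 and 2.81 times the genome background under cystine restriction and 2.10 and 1.91 times in full medium. The fold enrichments in the deposited lists were accordingly modest, 6.02 and 6.92 under cystine restriction and 6.02 and 6.25 in full medium. In rank the peaks stood at the 74.6 and 79.1 percentile under cystine restriction and at the 64.6 and 71.4 percentile in full medium.

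The other TNFAIP3 regions were listed under cystine restriction only. TNFAIP3 region 4, from 138216033 to 138216414, lay 11.6 kb beyond the 3′ end of the gene and was gained, with 10 tags in each cystine-restricted library (scaled pileups 7.70 and 9.23), at summits 11 bp apart. TNFAIP3 region 2, from 138184405 to 138184773, lay 3.55 kb upstream of the start and had 20 tags in cystine-restricted library 1 alone, on a local background of 3.31 times the genome background. TNFAIP3 region 1, from 138172857 to 138173006, lay 15.3 kb upstream and had 10 tags, again in cystine-restricted library 1 alone. A region 1.10 kb outside the window on the right, from 138225549 to 138225895, was gained as well, with 17 and 9 tags.

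NFKBIA, the gene of IκBα, had no region shared by the libraries of a medium. NFKBIA region 2, on chromosome 14 from 35873019 to 35873622 (hg19), lay inside the gene, 338 bp from its first base, the gene being read from the minus strand. It had 9 tags in cystine-restricted library 1 and 13 tags in full-medium library 1 (scaled pileups 6.93 and 11.8), at summits 3 bp apart, and no peak in the other 2 libraries. The cystine-restricted peak was the lower one of this pair and ranked at the 4.96 percentile of its list, against the 45.2 percentile for the full-medium peak, and 1 library per medium allows no test. NFKBIA region 1, from 35854610 to 35854846, lay 15.9 kb beyond the 3′ end and had 7 tags in cystine-restricted library 2 and 9 tags in full-medium library 2 (scaled pileups 6.46 and 6.83), near the lowest pileups listed. Whether the windows place these peaks in exons, introns or UTRs was not analysed here.

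Across the 3 loci, 3 of the 4 regions that could be tested passed as higher under cystine restriction and none as lower, where 43.2% of all regions tested passed as higher and 0.407% as lower. After centring 2 of the 4, CXCL regions 4 and 6, passed as higher and none as lower, against 4.96% and 4.28% of all regions tested. Counts over 4 regions are a description of these regions only. The median change of the 4 was 1.52 (log2), against 0.53 over all regions tested, and 0.95 against -0.04 after centring. The 4 entered the test because each library listed a peak there, and they are not all members: the other 8 regions, with no peak in at least 1 library, could not be tested for height. These 8 include both NFKBIA regions. The regions just outside the windows on chromosomes 4 and 14 had 8 to 22 tags where listed, and only the region to the right of the NFKBIA window, from 35949388 to 35949864, was in all libraries, with 21 and 22 tags under cystine restriction and 13 tags in each full-medium library.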

How the data were processed

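The 4 peak lists, 1 per library, are on build hg19. Per the submitters' processing notes the tools were MACS2 2.2.7.1, BWA 0.7.17, fastp 0.19.7 and bcl2fastq 2.17. Their options are not stated there. The deposited lists give per peak a fold enrichment ratio, a −log10 p, a −log10 q, a score of about 10 times the −log10 q, and a summit. Read counts and depth are not given, so pileups were recovered as the whole number n for which fold is (n + 1)/(background + 1) and p is the Poisson chance of more than n. Every peak matched its −log10 p within 0.00212%. Peaks were merged in Python 3.11.15 and checked against bedtools 2.31.1. In each region the highest peak of a library was used. limma 3.58.1 in R 4.3.3, with mean-variance trend and no filter beyond a peak in all 4 libraries, was tested on simulated data. Pileups may include PCR duplicates, so they are not all independent molecules.

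The regions named are those of the rule that chose the windows, each listed in all libraries, gained or lost; the rest, only 5, are named after their values were seen. Members, motifs and tests were chosen with earlier results of these data known. A planned list of other NF-κB genes needs gene positions in hg19 and was not analysed here. Alternatives were centring, a pseudocount, a pileup filter, no trend, a replicate block, a stricter −log10 q, reciprocal overlap, equal list lengths and leaving out each library.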

Additional observations from a re-analysis of the deposited data

How the results depend on the processing

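CXCL regions 4 and 6 kept their direction in every alternative that could fit them. With all 4 libraries kept, their adjusted p in limma stayed under 0.05. It was largest without the trend, at 2.6e-04 and 1.9e-04, where less variance is borrowed from other regions (13.7 degrees of freedom in total). Peaks with a −log10 q of at least 5, and a reciprocal overlap of 50%, left only the TNFAIP3 region in all libraries (1 instead of 4), so 0 regions were called higher and the median change was 0.56 in both. These settings remove full-medium peaks of the CXCL regions or separate them from the wider cystine-restricted ones. Centring gave a median change of 0.95, and the TNFAIP3 region turned to -0.008. A mean pileup of at least 20 tags left out CXCL region 5 and gave a median of 2.11. Leaving out 1 library gave a median change of 1.40 to 2.14, against 0.43 to 0.59 over all regions fitted. There were then 3 to 6 gained regions, 3 to 4 in all libraries and a ratio of peak numbers of 1.82 to 2.2. The shares of all regions in these classes are not given for these settings, so the counts describe the windows only. A medium left with 1 library was assumed to vary like the other. The 6 gained regions arose without cystine-restricted library 2, as fewer libraries are then required. With equal numbers of top peaks, 0 regions were gained and the ratio was 1, and with a −log10 q of at least 5 the ratio was 3.25. The adjusted p of the TNFAIP3 region in limma ran from 0.062 to 0.99 over the alternatives that kept all 4 libraries. That of CXCL region 5 ran from 0.014 to 0.52 in those of them that could fit it.

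With the replicate block, limma called the same number higher (3), where 4492 of all 10331 regions tested passed as higher. Within same-numbered pairs 6 and 5 regions were gained, a geometric mean of 5.48. A gain within a pair needs only 1 library of each medium, and the cystine-restricted lists were longer. The share of all regions gained within pairs is not given here. The deviations of same-numbered libraries correlated at 0.01 over all regions, which does not pair the libraries. Depth limits the low regions: the lowest listed summit had 6 or 7 tags.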
